A study of Mus musculus with 24 samples.

Results

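NF-κB is a family of transcription factors that work as dimers, and the mouse genes of its subunits and of its main inhibitors were followed here in bone marrow-derived macrophages, phagocytic cells matured in culture from precursors of the marrow. The members are the 5 subunit genes Nfkb1, Nfkb2, Rel, Rela and Relb, the inhibitor genes Nfkbia, Nfkbie, Nfkbid and Nfkbiz, and Tnfaip3. They are a fixed set of names, drawn up with earlier results of these data known, each name matched 1 row, and they are 10 of 54532 genes in the deposited table. All 10 had reads in every library and passed the filter on low counts.

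The study set macrophages with and without a SMAD transcription factor beside each other, each untreated or after TGF-β1 at 10 ng/ml for 4 hours. Polyadenylated RNA was sequenced from 24 libraries, 3 for each of 8 groups, and the strain given for every sample is C57BL/6. The 4 genotypes, from mice 2 to 3 months old, are Smad2fl (Smad2fl/fl), MyS2KO (Smad2fl/fl + LyzMCre), Smad3fl (Smad3fl/fl) and MyS3KO (Smad3fl/fl + LyzMCre). All groups, the floxed ones included, carry loxP-flanked alleles of their line's gene, and no group without such alleles was analysed here. In LyzM-Cre the promoter of the myeloid lysozyme gene expresses the recombinase, so recombination happens as precursors mature and need not reach every cell. All cultures were first kept with conditioned medium as a source of IL-3 and with CSF-1, then with CSF-1, and went without serum for about 16 hours before treatment. That the 3 libraries of a group came from separate mice or cultures is stated nowhere in the labels, and the protocol speaks of 8 cDNA libraries, so every p-value measures only the spread between these libraries, which may be technical.

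In a resting cell, NF-κB dimers are held in the cytoplasm by inhibitor proteins. Signals from Toll-like, interleukin 1 or tumour necrosis factor receptors lead a kinase complex to mark those inhibitors for destruction, and the freed dimers enter the nucleus. Several of the inhibitors, Nfkbia among them, are themselves induced by NF-κB, which gives the pathway its negative feedback, and macrophages are known for their use of it in inflammation.

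The sites through which NF-κB reaches DNA are a family of decameric motifs, the κB sites. The promoter windows of Nfkbia, Nfkbie, Nfkb2 and Nfkbid are shown because the results below turn on these genes and each window holds such a site. Sequences are from RefSeq on GRCm38.p6, from 250 bases before an annotated start to 50 after it, on the strand of the gene and 5′ to 3′. Capitals mark matches to the κB consensus on either strand.
Nfkbia, chr12:55492598-55492897, minus strand: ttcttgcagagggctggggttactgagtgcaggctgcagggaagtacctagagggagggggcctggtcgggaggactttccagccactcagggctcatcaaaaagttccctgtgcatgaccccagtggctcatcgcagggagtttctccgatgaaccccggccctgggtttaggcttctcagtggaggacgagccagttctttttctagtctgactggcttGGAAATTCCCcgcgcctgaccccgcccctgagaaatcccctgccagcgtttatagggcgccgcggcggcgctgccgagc
Nfkbie, chr17:45555450-45555749, plus strand: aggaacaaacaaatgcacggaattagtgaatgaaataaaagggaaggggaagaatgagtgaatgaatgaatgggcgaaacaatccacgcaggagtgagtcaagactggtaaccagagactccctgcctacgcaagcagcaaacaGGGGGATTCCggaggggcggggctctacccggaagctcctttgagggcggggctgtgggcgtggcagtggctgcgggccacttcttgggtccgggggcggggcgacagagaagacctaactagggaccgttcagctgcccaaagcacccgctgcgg
Nfkb2, chr19:46304487-46304786, plus strand: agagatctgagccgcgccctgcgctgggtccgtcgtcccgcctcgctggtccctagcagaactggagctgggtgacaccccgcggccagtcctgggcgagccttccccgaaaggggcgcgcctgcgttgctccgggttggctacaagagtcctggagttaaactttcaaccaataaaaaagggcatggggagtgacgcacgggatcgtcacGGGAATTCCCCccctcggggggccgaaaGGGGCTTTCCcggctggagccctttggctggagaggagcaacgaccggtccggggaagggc
Nfkbid, chr7:30422156-30422455, plus strand, at a start downstream of the first annotated one: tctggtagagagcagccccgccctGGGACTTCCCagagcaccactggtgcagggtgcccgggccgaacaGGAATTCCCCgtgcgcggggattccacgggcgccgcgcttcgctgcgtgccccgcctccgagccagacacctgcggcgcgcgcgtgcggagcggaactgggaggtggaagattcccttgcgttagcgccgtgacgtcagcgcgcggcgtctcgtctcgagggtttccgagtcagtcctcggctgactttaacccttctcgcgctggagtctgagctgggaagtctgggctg

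The Nfkbia match GGAAATTCCC lies from -29 to -20 from the start, on the minus orientation. Nfkbie holds GGGGGATTCC from -106 to -97. Nfkb2 holds 3 matches, of which the first pair, GGGAATTCCC and GGAATTCCCC, overlap, and the third, GGGGCTTTCC, ends at -2. Nfkbid holds GGGACTTCCC and GGAATTCCCC at this start and none at its first annotated start. Tnfaip3 holds GGGACACCCC from -125 to -116 and GGAAATCCCC from -12 to -3, and Rel holds an overlapping pair, GGGAAATCCC and GGAAATCCCC, from -92 to -82. The consensus was found in 8 of 12 windows and in 6 of the 7 members with an entry, the exception being Rela. Over all windows of 300 bases it was found in 4.51% of 32851 windows and 5.14% of 27025 genes. Some windows of 1 gene overlap, so these counts are not independent. Nfkb1, Relb and Nfkbiz had no entry. The SMAD box CAGAC, searched on both strands, was in 3 of the 12 windows, belonging to Nfkbid, Tnfaip3 and Nfkbia, against 49.6% of all windows, and GTCTAGAC was in 1 window, of Tnfaip3, against 0.213%. A match is only a description of letters in the window, and binding was not measured here.

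Libraries held 16.9 to 24.9 M counted reads (M, 1e6), and levels are given in CPM, which is reads per 1e6 after TMM scaling of the deposited counts. All 10 macrophage markers reached 1 CPM, and their sum lay between 15809 and 32576 CPM. The 10 neutrophil markers summed to 1.06 to 23.0 CPM, the 8 stromal ones to at most 3.30, and the mast cell and basophil list to at most 0.450, with Fcer1a, Mcpt4 and Mcpt8 at 0. The 9 T, B and NK cell markers, of which 2 reached 1 CPM, summed to 3.92 to 13.7 CPM. Cd3e, which defines T cells, was at 0 in all libraries. Higher sums came from the 6 endothelial markers, at 56.5 to 180.3 CPM, and the 8 dendritic cell markers, at 16.2 to 41.3 CPM. Of each of these 2 lists, 4 markers reached 1 CPM. In bulk RNA, fewer cells of a type and less RNA per cell cannot be told apart.
Within its line Smad3 was lower in MyS3KO, with 443, 460.0 and 369 CPM in untreated Smad3fl against 209, 181 and 161 in untreated MyS3KO, a log2 change of -1.21 ± 0.14 (adjusted p = 6.91e-06), and of -0.63 ± 0.13 (adjusted p = 0.00208) with TGF-β1. The MyS3KO libraries nevertheless held more Smad3 RNA than the Smad2 line, where untreated Smad2fl was at 40.6, 45.8 and 38.0 CPM and untreated libraries labelled MyS2KO at 34.0, 26.4 and 33.4. The log2 difference was 3.35 ± 0.15 (adjusted p = 1.12e-12) for Smad3fl over Smad2fl and 2.56 ± 0.14 (adjusted p = 9.14e-11) for MyS3KO over those labelled MyS2KO. Smad2 does not check the labels of the other line. It lay at 45.4, 39.6 and 41.6 CPM in untreated Smad2fl and at 41.7, 42.5 and 37.1 in untreated libraries labelled MyS2KO, with changes of -0.06 ± 0.12 (adjusted p = 0.924) untreated and 0.09 ± 0.12 (adjusted p = 0.891) with TGF-β1. For either gene, reads over the whole gene do not show whether the floxed exons were lost. The libraries of the Cre-carrying Smad2 line are called labelled MyS2KO throughout.

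Some libraries stood apart, and results that rest on them are given with and without them. The first and second principal components of log2 CPM carried 32.7% and 15.8% of the variance. MyS3KO library 1 differed from libraries 2 and 3 in both treatments: untreated, its score on the second component was 42.1 against 13.9 and 12.3, transcripts of ribosomal proteins made up 1.50% of its counts against 2.08% and 1.93%, and Ifi202b, an interferon-inducible gene whose copies are known to differ between mouse strains, was at 1.25, 88.0 and 104 CPM in the 3 libraries. Smad3fl library 3 lay at 6.93 on the first component when untreated, against 63.8 and 68.7. In Smad3fl, transcripts of ribosomal proteins made up 0.879% to 1.41% of counts, against 1.50% to 2.23% in the other 6 groups. The part of these differences in the results below was not tested.

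Read per length, Nfkbia was the most abundant member, with a median of 558 FPKM over the 24 libraries. Nfkbiz followed with 159 FPKM, then Nfkb1 with 94.1, Nfkb2 with 91.8, Tnfaip3 with 69.8, Rela with 58.3, Relb with 39.7, Nfkbie with 34.1, Rel with 17.5 and Nfkbid with 16.6. Nfkb1 and Nfkb2 stood side by side in that order, and so did Rel and Nfkbid. How far a member ranged between groups was a different matter. The highest group mean exceeded the lowest 3.48-fold for Nfkbiz, 2.91-fold for Nfkbie, 2.66-fold for Nfkbid, 2.61-fold for Rel, 2.38-fold for Tnfaip3 and 2.37-fold for Nfkb2, but only 1.31-fold for Rela and 1.28-fold for Nfkb1. Nfkbia and Relb lay between, at 1.88-fold and 1.85-fold. Untreated Smad3fl had the highest mean of the 8 groups for 7 members, untreated libraries labelled MyS2KO for Rela and Relb, and TGF-β1-treated Smad3fl for Nfkbid. When groups were ordered by mean, neighbouring groups mostly overlapped. Of 7 neighbouring pairs, 4 had ranges apart for Nfkbiz, 2 for Nfkbid, 1 each for Nfkbie and Tnfaip3, and none for the other 6 members. In the order of Nfkbiz, untreated Smad3fl came first with 835 ± 37.9 CPM (SD, n = 3), apart from all others, and treated Smad2fl last with 239.9 ± 30.4. In the order of Nfkbid, treated Smad3fl came first with 50.4 ± 4.74 and untreated MyS3KO last with 18.9 ± 5.79.

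**Figure D1:**
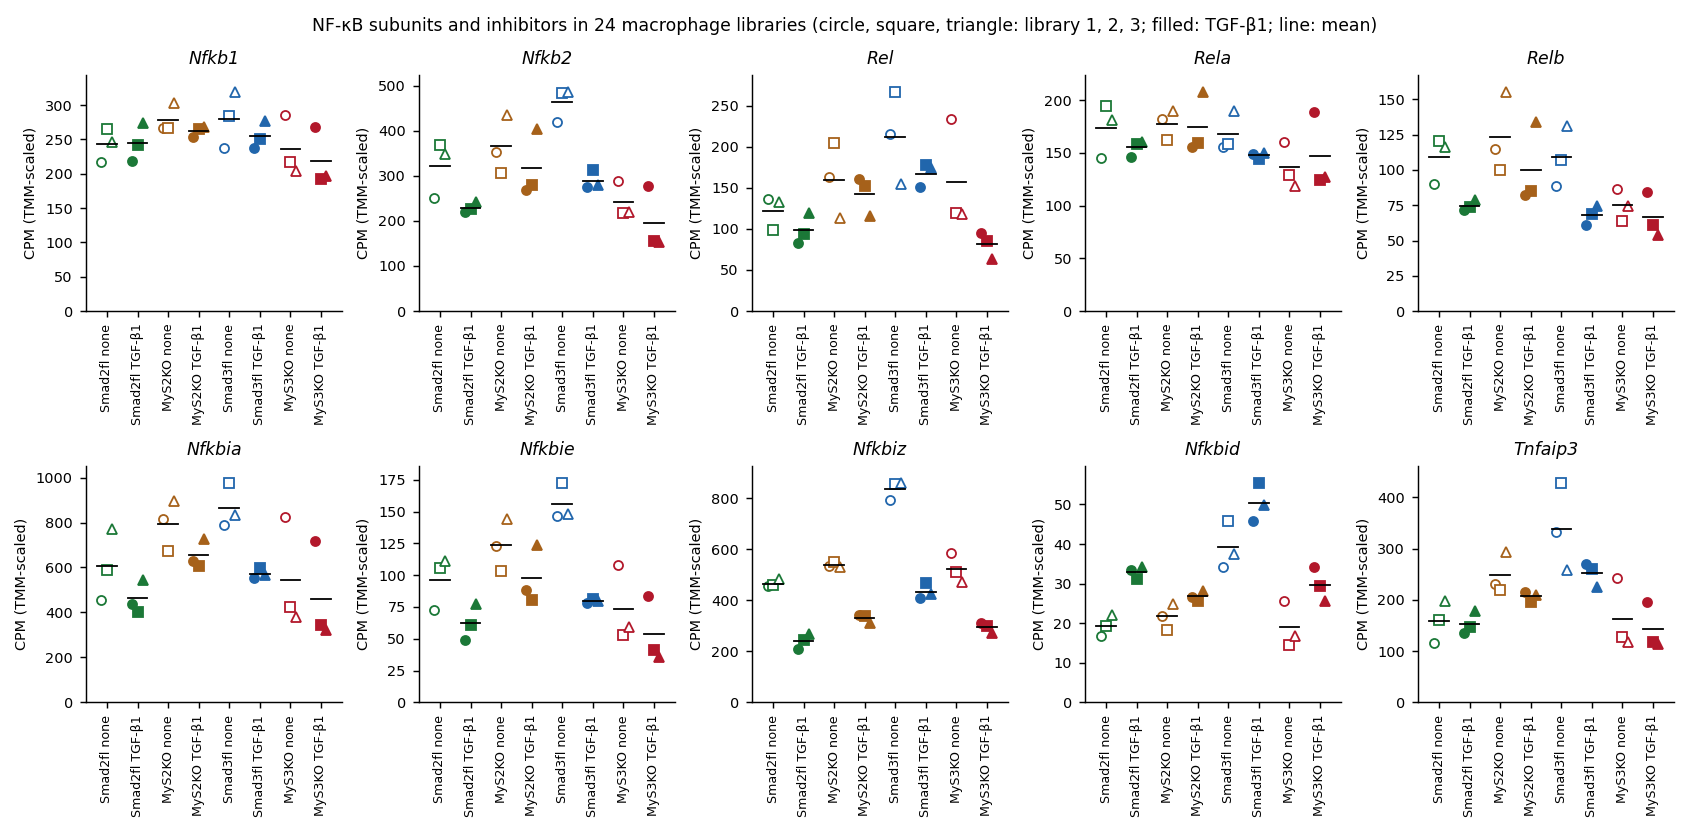
CPM of each member (y axes, TMM-scaled, from 0) in the 3 libraries of each of the 8 groups (x axes). Open symbols are untreated and filled symbols TGF-β1, circles, squares and triangles are libraries 1, 2 and 3, and the line is the mean of 3; the group labelled MyS2KO is shown by its label. Nfkbiz was lower in all treated groups, Nfkbid had a higher mean in the treated group of each genotype, and MyS3KO library 1 lay above libraries 2 and 3 in every panel.

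The first comparison asks how TGF-β1 changed the members in each genotype. Nfkbiz (ENSMUSG00000035356, chr16:55811375-55838899) encodes a nuclear inhibitor-like protein that acts as a cofactor at selected NF-κB target genes, and its RNA fell in all 4 genotypes. In Smad2fl it was at 456, 458 and 481 CPM untreated and 208, 243 and 269 with TGF-β1. In libraries labelled MyS2KO it was at 535, 549.6 and 531 and 341, 337 and 312. Treated and untreated libraries did not overlap in either. The Smad3fl libraries gave 791, 856 and 858 CPM untreated and 407, 469 and 426 treated. Those of MyS3KO gave 585, 512 and 471 and 309.7, 299 and 273. Here too every treated library lay below every untreated one. The log2 change was -0.96 ± 0.11 (adjusted p = 2.25e-06) in Smad2fl, -0.71 ± 0.11 (adjusted p = 0.000275) in libraries with the MyS2KO label, -0.94 ± 0.11 (adjusted p = 3.02e-06) for Smad3fl and -0.83 ± 0.11 (adjusted p = 1.68e-05) for MyS3KO. Values after ± are standard errors of the edgeR quasi-likelihood fit, a gene is called at an adjusted p under 0.05, and none of these 4 calls was lost under any alternative.

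Nfkbid (ENSMUSG00000036931, chr7:30421732-30428746) encodes another nuclear member of the inhibitor family, and its RNA went the other way: it rose in Smad2fl and in MyS3KO. In Smad2fl it was at 16.9, 19.2 and 22.0 CPM untreated and at 33.5, 31.2 and 34.1 with TGF-β1. In MyS3KO it was at 25.5, 14.6 and 16.7 and 34.1, 29.4 and 25.6. The groups were apart in both, though in MyS3KO the highest untreated library, number 1, stood just below the lowest treated one, number 3. The changes were 0.77 ± 0.18 (adjusted p = 0.00512) in Smad2fl and 0.65 ± 0.18 (adjusted p = 0.0197) in MyS3KO. The MyS3KO call was lost without untreated library 2, at 0.46 (adjusted p = 0.138), without untreated library 3, at 0.54 (adjusted p = 0.103), without treated library 1, at 0.53 (adjusted p = 0.0813), or without treated library 2, at 0.62 (adjusted p = 0.0623). In a fit of only the 6 MyS3KO libraries the adjusted p was 0.155. Without both MyS3KO libraries numbered 1 the change was 0.78 ± 0.17 (adjusted p = 0.00523). In Smad3fl, Nfkbid was at 34.2, 45.9 and 37.4 CPM untreated and 45.9, 55.3 and 49.9 with TGF-β1, with a change of 0.36 ± 0.17 (adjusted p = 0.198). In libraries labelled MyS2KO it was at 21.9, 18.4 and 25.0 and 26.6, 25.7 and 28.2, with a change of 0.30 ± 0.18 (adjusted p = 0.572). The Smad3fl groups met at the highest untreated and the lowest treated library, and those labelled MyS2KO were apart. With the library numbers as a block, which pair libraries in Smad3fl, the Smad3fl change was called at 0.37 ± 0.12 (adjusted p = 0.0325).

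Nfkbia and Nfkbie encode classical cytoplasmic inhibitors that hold dimers out of the nucleus. Nfkbie (ENSMUSG00000023947, chr17:45555703-45563169) fell in Smad3fl, from 147, 172 and 148 CPM to 78.0, 81.2 and 79.8. Every treated library lay far below every untreated one, and the treated libraries were close together. The change was -0.97 ± 0.28 (adjusted p = 0.0237), and it was lost without untreated library 2, at -0.91 (adjusted p = 0.0582), and without treated library 1, at -0.95 (adjusted p = 0.0816), treated library 2, at an adjusted p of 0.0606, or treated library 3, at -0.99 (adjusted p = 0.0573). In these fits the estimate moved little and the adjusted p crossed the threshold. In Smad2fl the levels were 72.4, 105 and 111 and 49.4, 60.8 and 77.1 CPM, which overlapped, with a change of -0.62 ± 0.28 (adjusted p = 0.166). Those labelled MyS2KO gave 123, 103 and 144 and 88.2, 80.5 and 124, and a change of -0.34 ± 0.28 (adjusted p = 0.755). With the block it was called, at -0.35 ± 0.10 (adjusted p = 0.0369). Pairing is less clear there, as number 1 correlated at 0.15 and unlike numbers at up to 0.20. In MyS3KO the levels were 108, 53.0 and 59.3 and 83.4, 41.3 and 36.0, a change of -0.46 ± 0.28 (adjusted p = 0.37), called only without treated library 1, at -0.93 (adjusted p = 0.0253), among the libraries left out singly.

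Nfkbia (ENSMUSG00000021025, chr12:55489410-55492647) carries its promoter match nearer to the start than Nfkbie does. It had a negative estimate in each genotype and was called in none by the edgeR fit without a block. It was at 789, 974 and 832 CPM in untreated Smad3fl and 555, 598 and 565 with TGF-β1, groups that did not overlap. The change was -0.59 ± 0.27 (adjusted p = 0.179), and -0.59 ± 0.10 (adjusted p = 0.000228) with the library numbers as a block. The Smad2fl libraries gave 455, 589 and 773 CPM untreated and 439.7, 403 and 545 treated, with a change of -0.39 ± 0.27 (adjusted p = 0.405). Estimates were -0.28 ± 0.27 (adjusted p = 0.809) in libraries labelled MyS2KO and -0.23 ± 0.27 (adjusted p = 0.699) in MyS3KO. Untreated Smad2fl libraries alone spanned 455 to 773 CPM, a wider range than the difference between the Smad2fl means of 606 and 462.

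Of the subunits, Nfkb2 (ENSMUSG00000025225, chr19:46304737-46312090), whose precursor protein is processed into a DNA-binding subunit of the non-canonical pathway, fell in Smad3fl from 421, 484 and 486 CPM to 275, 314 and 281. Relb (ENSMUSG00000002983, chr7:19606217-19629438), its usual dimer partner, fell there from 88.9, 107 and 131 to 61.0, 68.8 and 74.3 CPM. For both genes every treated Smad3fl library was below every untreated one. The changes were -0.68 ± 0.21 (adjusted p = 0.0346) for Nfkb2 and -0.68 ± 0.21 (adjusted p = 0.0309) for Relb. Both calls depended on single libraries. For Nfkb2 the adjusted p was 0.064 without untreated library 2, 0.0912 without untreated library 3, and 0.121, 0.0528 and 0.081 without treated library 1, 2 or 3, with changes from -0.75 to -0.64. For Relb the change was -0.54 (adjusted p = 0.163) without untreated library 3, -0.61 (adjusted p = 0.139) without treated library 1 and -0.71 (adjusted p = 0.0719) without treated library 2. In Smad2fl, Nfkb2 was at 252, 367 and 349 CPM untreated and 219.9, 226 and 243 treated, and Relb at 89.8, 121 and 116 and 71.5, 73.4 and 78.7. Neither pair of groups overlapped. Neither change was called, with -0.49 ± 0.21 (adjusted p = 0.143) for Nfkb2 and -0.55 ± 0.21 (adjusted p = 0.0934) for Relb. Without untreated Smad2fl library 1, which held the lowest untreated level of each, both were called, at -0.67 (adjusted p = 0.048) and -0.70 (adjusted p = 0.0402). In MyS3KO, Nfkb2 was at 288, 218 and 220.1 CPM untreated and 278, 155 and 153 with TGF-β1, overlapping through library 1, with an estimate of -0.31 ± 0.21 (adjusted p = 0.429) that was called without treated library 1, at -0.66 (adjusted p = 0.0284). Relb had an estimate of -0.17 ± 0.21 (adjusted p = 0.715) there. In libraries labelled MyS2KO the estimates were -0.20 ± 0.21 (adjusted p = 0.822) for Nfkb2 and -0.30 ± 0.20 (adjusted p = 0.675) for Relb. A gene on the opposite strand, Psd, overlaps Nfkb2 and had at most 834 reads in a library, and whether counting used strand is not given in the sources used here.

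Rel (ENSMUSG00000020275, chr11:23736847-23770970), the c-Rel subunit known from activated lymphocytes and myeloid cells, fell in MyS3KO. It was at 234, 119 and 118 CPM untreated and 95.5, 85.7 and 63.3 with TGF-β1. The untreated level of library 1 was nearly 2-fold that of libraries 2 and 3, and the groups did not overlap. The change was -0.95 ± 0.26 (adjusted p = 0.0198), but -0.54 (adjusted p = 0.238) without untreated library 1 and -0.70 ± 0.26 (adjusted p = 0.139) without both libraries numbered 1. It was -0.82 (adjusted p = 0.11) without treated library 3, and the adjusted p was 0.0916 in a fit of only the 6 MyS3KO libraries. In Smad3fl the libraries gave 216, 267 and 155 CPM and 151, 177 and 174, which overlapped, with an estimate of -0.34 ± 0.26 (adjusted p = 0.435). The Smad2fl libraries gave 136, 98.7 and 132 CPM and 83.0, 94.0 and 119, and those labelled MyS2KO gave 163, 204 and 113 and 161, 153 and 115. Both pairs overlapped, with estimates of -0.31 ± 0.26 (adjusted p = 0.486) and -0.16 ± 0.26 (adjusted p = 0.89).

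Rela and Nfkb1, which encode the subunits of the commonest NF-κB dimer, gave the estimates nearest to 0 among the subunits in each genotype. Rela (ENSMUSG00000024927, chr19:5637483-5648130) lay between 119 and 208 CPM and Nfkb1 (ENSMUSG00000028163, chr3:135584655-135691547) between 192 and 319 CPM over all 24 libraries. Changes with TGF-β1 ran from -0.19 in Smad3fl to 0.11 in MyS3KO for Rela, each with a standard error of 0.16, and from -0.14 in Smad3fl to 0.01 in Smad2fl for Nfkb1, each with a standard error of 0.15. None was called, and Rela in Smad3fl was the only one of these 8 comparisons whose groups were apart, at 156, 159 and 190.0 CPM untreated and 149, 144 and 149.6 treated.

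Tnfaip3 (ENSMUSG00000019850, chr10:19000910-19015657) encodes a ubiquitin-editing enzyme that ends NF-κB signalling. It was at 332, 428 and 258 CPM in untreated Smad3fl and at 269.6, 261 and 226 with TGF-β1, groups that overlapped. The change was -0.43 ± 0.25 (adjusted p = 0.311), and -0.40 ± 0.11 (adjusted p = 0.0161) with the block. In the other genotypes the estimates were -0.05 ± 0.25 (adjusted p = 0.924) in Smad2fl, -0.26 ± 0.25 (adjusted p = 0.803) in libraries labelled MyS2KO and -0.19 ± 0.25 (adjusted p = 0.741) in MyS3KO. Its levels in libraries labelled MyS2KO, 231, 219.9 and 294 untreated and 216, 196 and 210.0 treated, did not overlap.

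Counted together, TGF-β1 changed 2 of 10 members in Smad2fl (Nfkbiz lower, Nfkbid higher), where 11.1% of all 14261 tested genes were called, 3.74% lower and 7.37% higher. In libraries labelled MyS2KO it changed 1 member, lower, where 3.41% of all genes were called and 0.505% were lower. In Smad3fl 4 members fell, where 12% of all genes were called and 5.64% fell. In MyS3KO 2 members fell and 1 rose, where 10% were called, 3.47% lower and 6.54% higher. Ranges did not overlap for 4, 3, 6 and 3 members in that order, against 33.8%, 18.4%, 28.4% and 24.9% of all tested genes. In Smad2fl and in those labelled MyS2KO, the count of members called by the test lay within 1 member of what the percentage of all genes called gives for 10 genes. The members' median log2 change was -0.35, -0.23, -0.51 and -0.21, against 0.01, 0.01, -0.03 and 0.00 over all genes. Some marker sums differed in the same contrasts. In Smad3fl the dendritic cell list was apart by range, at 33.6 to 41.3 CPM against 20.2 to 26.4 with TGF-β1. In Smad2fl the macrophage list was, at 27689.6 to 32576 CPM against 23628 to 25096, as was the endothelial list, at 109 to 139.6 CPM against 96.5 to 104. In those labelled MyS2KO the same held at 21017 to 24256 CPM against 19216 to 20909 for macrophages, 149.8 to 180.3 CPM against 118 to 135 for endothelium and 25.9 to 27.2 CPM against 28.7 to 29.3 for dendritic cells. In MyS3KO the T, B and NK cell list, of which 2 of 9 markers reached 1 CPM, was at 10.5 to 10.7 CPM against 8.34 to 10.1. Their part in the results was not tested. Leaving out 1 library moved the Smad3fl count to 2 without untreated library 2 or 3 or treated library 3, and to 1, Nfkbiz, without treated library 1 or 2. In Smad2fl it was 4 without untreated library 1. The genes called over all in fits without 1 library are given at the end as ranges, so these counts have no share beside them. In Smad3fl the count was 7 with the library block, where 23.2% of all genes were called, and in those labelled MyS2KO it was 2, where 7.24% were. Without both Smad3fl libraries numbered 3, it was 1 member in Smad3fl, Nfkbiz at -0.92 ± 0.14 (adjusted p = 0.000123), where 6.66% of all genes were called. The calls of Nfkb2, Nfkbie and Relb were lost in that fit, which has fewer libraries, at -0.63 ± 0.26 (adjusted p = 0.187), -1.01 ± 0.35 (adjusted p = 0.1) and -0.61 ± 0.24 (adjusted p = 0.175).

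**Figure D2:**
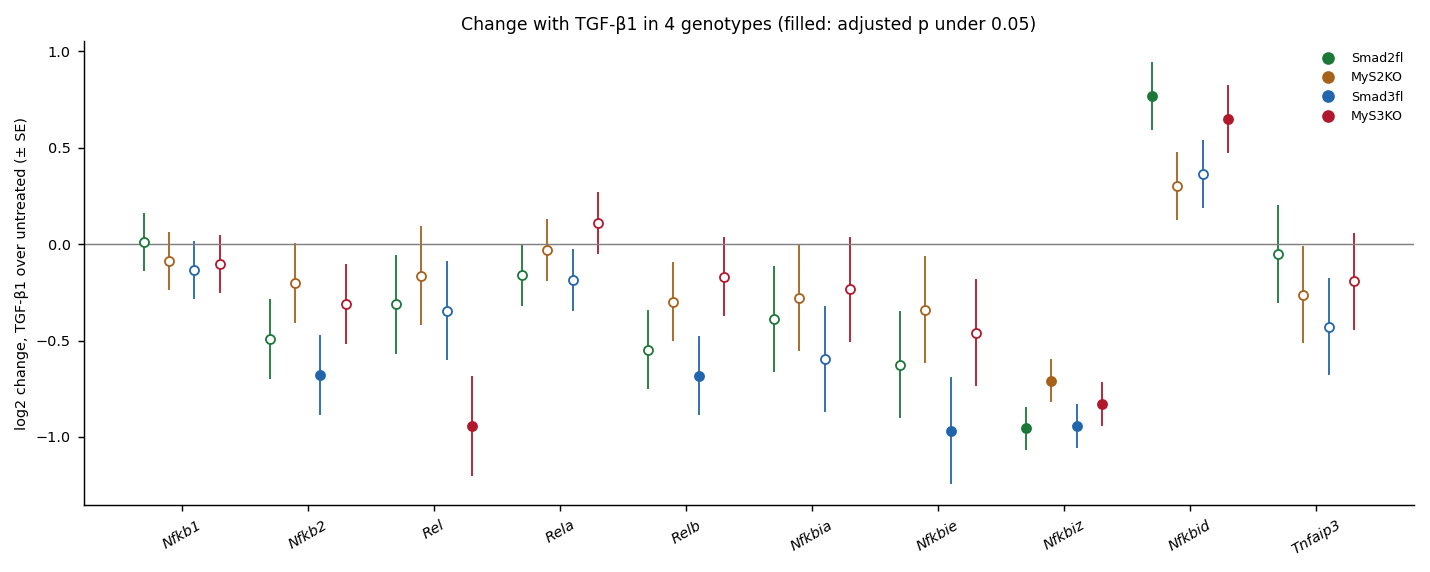
Log2 change with TGF-β1 (y axis, bars are ± 1 SE of the edgeR fit on 24 libraries) of each member (x axis) in the 4 genotypes, MyS2KO by its label. Filled points are called at an adjusted p under 0.05: Nfkbiz was called lower in all 4, from -0.96 to -0.71, and Nfkbid is the only member whose 4 estimates are all above 0.

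The second comparison sets MyS3KO against Smad3fl libraries. All 10 members had lower means in untreated MyS3KO, and 5 of them passed the test: Nfkb2, Nfkbid, Nfkbie, Nfkbiz and Tnfaip3. Of all tested genes 17.7% were called and 9.38% were lower. Ranges of 6 members did not overlap, against 25.7% of all genes. Tnfaip3 went from 332, 428 and 258 CPM in Smad3fl to 244, 127 and 118 in MyS3KO, a change of -1.06 ± 0.25 (adjusted p = 0.00625). Nfkbie went from 147, 172 and 148 to 108, 53.0 and 59.3 CPM, a change of -1.08 ± 0.28 (adjusted p = 0.0099). Every MyS3KO library was below every Smad3fl library for both, and library 1 was the nearest to Smad3fl. The Nfkbie call was lost without untreated MyS3KO library 2, at -0.88 (adjusted p = 0.0701), or library 3, at -0.94 (adjusted p = 0.0636). Nfkbid was at 34.2, 45.9 and 37.4 CPM in Smad3fl and 25.5, 14.6 and 16.7 in MyS3KO, a change of -1.05 ± 0.18 (adjusted p = 0.000384). Nfkb2 was at 421, 484 and 486 and 288, 218 and 220.1 CPM, a change of -0.94 ± 0.21 (adjusted p = 0.00368). Nfkbiz was at 791, 856 and 858 and 585, 512 and 471 CPM, a change of -0.68 ± 0.11 (adjusted p = 0.000344). None of these 3 genes had overlapping groups. In a fit of only these 6 libraries, Nfkb2 alone was still called, and adjusted p was 0.0676 for Nfkbid, 0.0809 for Nfkbie, 0.0826 for Nfkbiz and 0.112 for Tnfaip3.

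The other 5 members were not called. Nfkbia, at 789, 974 and 832 CPM in Smad3fl and 825, 422 and 381 in MyS3KO, had an estimate of -0.67 ± 0.27 (adjusted p = 0.0924). Its library 1 lay inside the Smad3fl range and libraries 2 and 3 far below it. Relb was at 88.9, 107 and 131 and 86.5, 64.2 and 74.4 CPM, apart by range, with an estimate of -0.54 ± 0.21 (adjusted p = 0.0702). Estimates were -0.44 ± 0.26 (adjusted p = 0.251) for Rel, -0.30 ± 0.16 (adjusted p = 0.2) for Rela and -0.25 ± 0.15 (adjusted p = 0.261) for Nfkb1, whose groups overlapped. Without untreated library 1 of MyS3KO, 8 members were called, with Nfkbia at -1.10 (adjusted p = 0.00562), Rel at -0.84 (adjusted p = 0.0193) and Relb at -0.65 (adjusted p = 0.0489) added. The number of all genes called in that fit is given only within a range, at the end. Library 1 was the highest MyS3KO library for all 10 members, so leaving it out lowers each MyS3KO mean by construction. Without both MyS3KO libraries numbered 1, all 10 members were called lower, where 22% of all genes were called and 10.6% were lower. Nfkbia was then at -1.09 ± 0.18 (adjusted p = 0.000321), Tnfaip3 at -1.45 ± 0.21 (adjusted p = 7.38e-05), Rela at -0.42 ± 0.14 (adjusted p = 0.0404) and Nfkb1 at -0.40 ± 0.13 (adjusted p = 0.0368). Without both Smad3fl libraries numbered 3, the same 5 members were called as with all libraries, where 23.8% of all genes were called.

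With TGF-β1 in both arms, 5 members were lower in MyS3KO: Nfkb2, Nfkbid, Nfkbiz, Rel and Tnfaip3. Of all tested genes 28.2% were called and 13.2% were lower, and ranges did not overlap for 4 members, against 46.4% of all genes. Rel was at 151, 177 and 174 CPM in treated Smad3fl and 95.5, 85.7 and 63.3 in treated MyS3KO, a change of -1.04 ± 0.26 (adjusted p = 0.00612). Nfkbid was at 45.9, 55.3 and 49.9 and 34.1, 29.4 and 25.6, a change of -0.77 ± 0.18 (adjusted p = 0.00356). Both genes were lower in every MyS3KO library. Nfkbiz was at 407, 469 and 426 and 309.7, 299 and 273 CPM, a change of -0.56 ± 0.11 (adjusted p = 0.00133) with groups apart. Tnfaip3 was at 269.6, 261 and 226 and 195, 118 and 115, apart as well, a change of -0.82 ± 0.25 (adjusted p = 0.0199). The Tnfaip3 call was lost without treated Smad3fl library 1, at -0.75 (adjusted p = 0.0597), or 2, at -0.80 (adjusted p = 0.0561), and without treated MyS3KO library 2, at -0.71 (adjusted p = 0.0737), or 3, at -0.69 (adjusted p = 0.089). Nfkb2 was at 275, 314 and 281 and 278, 155 and 153 CPM, groups that overlapped through library 1 of MyS3KO, a change of -0.57 ± 0.21 (adjusted p = 0.0447). Without treated Smad3fl library 1 or 2, or treated MyS3KO library 2 or 3, both calls were lost and 3 members were called. Genes called over all in those fits are given at the end, as a range. The Nfkb2 call was lost without treated Smad3fl library 1, 2 or 3, at adjusted p of 0.0772, 0.132 and 0.0698, and without treated MyS3KO library 2 or 3, at 0.169 and 0.193, with changes from -0.59 to -0.42, and in a fit of only these 6 libraries, at 0.0796.

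Relb and Rela, by contrast, had estimates near 0 with TGF-β1, at -0.03 ± 0.21 (adjusted p = 0.931) and -0.01 ± 0.16 (adjusted p = 0.976). Nfkbia was at 555, 598 and 565 CPM in treated Smad3fl and 716, 344 and 324 in treated MyS3KO, with an estimate of -0.31 ± 0.27 (adjusted p = 0.406), library 1 standing above all Smad3fl libraries and libraries 2 and 3 below them. Without treated MyS3KO library 1 it was -0.76 (adjusted p = 0.0365). Nfkbie was likewise called only without that library among single ones, at -1.03 (adjusted p = 0.0102) against -0.58 ± 0.28 (adjusted p = 0.125) with all. Here too library 1 was the highest MyS3KO library for all 10 members, so leaving it out lowers each mean by construction. Without both MyS3KO libraries numbered 1, 8 members were called lower, where 23.8% of all genes were called and 10.6% were lower. The members not called in that fit were Rela, at -0.22 ± 0.14 (adjusted p = 0.27), and Relb, at -0.23 ± 0.21 (adjusted p = 0.449). Without both Smad3fl libraries numbered 3, 4 members were called, Nfkb2 being lost at -0.59 ± 0.23 (adjusted p = 0.0649), where 26.5% of all genes were called.

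**Figure D3:**
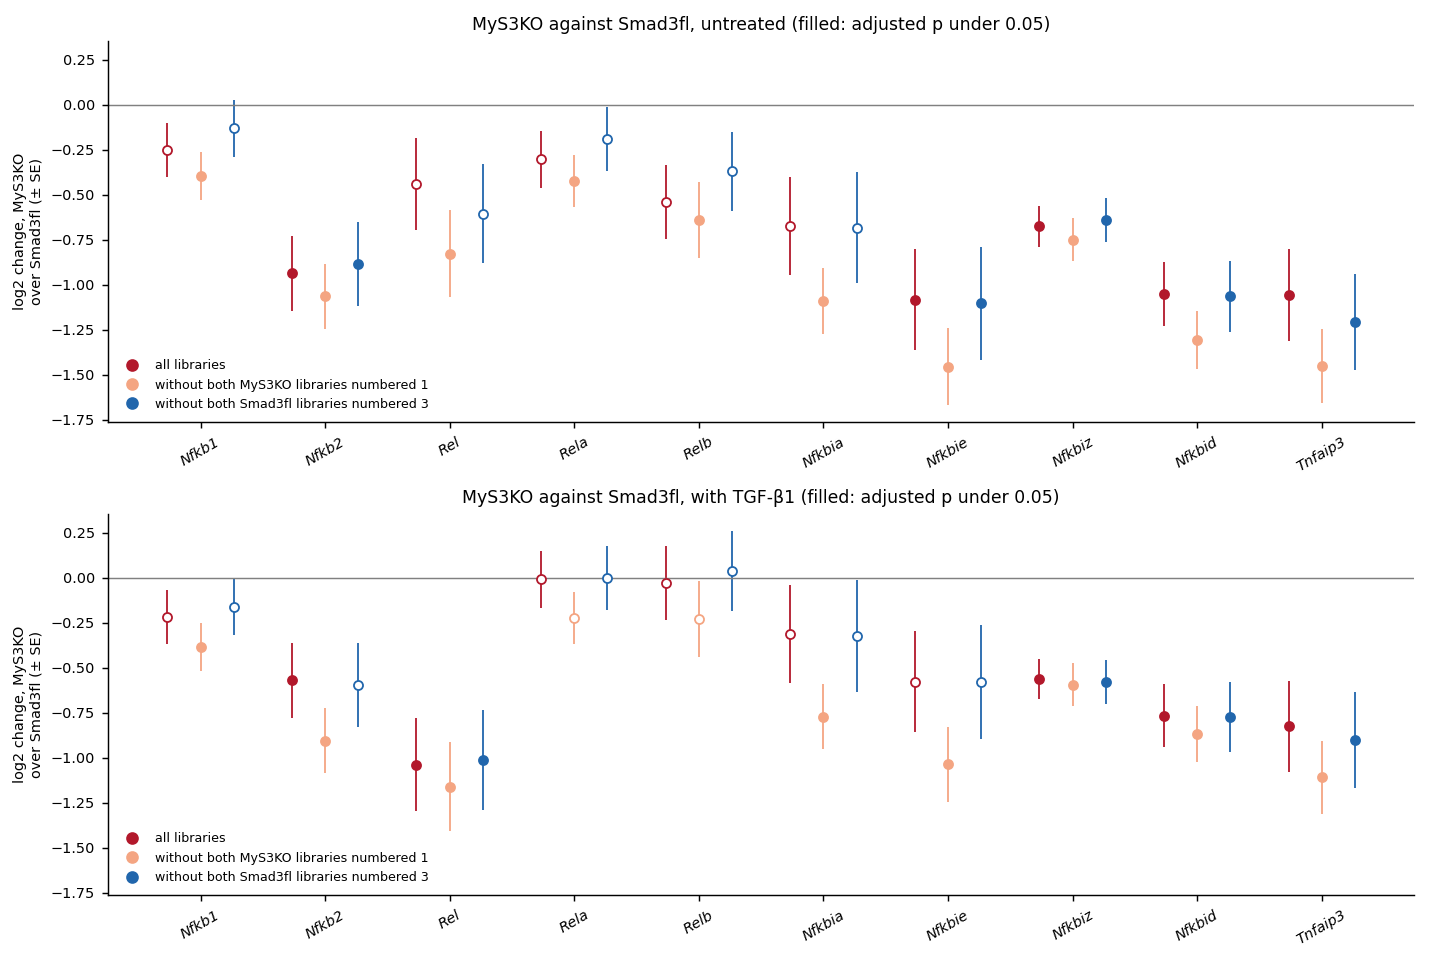
Log2 change of MyS3KO over Smad3fl (y axes, bars are ± 1 SE of the edgeR fit) for each member (x axes), untreated above and with TGF-β1 below. Colours are the fit on all libraries, the fit without both MyS3KO libraries numbered 1 and the fit without both Smad3fl libraries numbered 3, and filled points have an adjusted p under 0.05. In the untreated panel 5, 10 and 5 members are filled in that order, and in the treated panel 5, 8 and 4. MyS3KO library 1 was the highest of its group for all 10 members, so leaving it out lowers their MyS3KO means by construction.

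Library 1 of MyS3KO had the highest level of its group for all 10 members in both treatments. Its ratio to the mean of libraries 2 and 3 ran from 1.19 to 2.06 untreated and from 1.08 to 2.16 with TGF-β1. It lay within the range of the Smad3fl libraries of the same treatment for 4 members untreated and for 2 with TGF-β1. Its Smad3 level was the highest of its untreated group as well, at 209, 181 and 161 CPM in the 3 libraries, but below every untreated Smad3fl library. Other values moved with it. The 8 dendritic cell markers, of which 4 reached 1 CPM in some library and Cd209a was at 0 in all, summed to 39.5 CPM in untreated library 1 against 20.4 and 18.7 in libraries 2 and 3, and to 33.6 to 41.3 in untreated Smad3fl. With TGF-β1 the sums were 40.6 against 21.4 and 16.2 in MyS3KO, and 20.2 to 26.4 in Smad3fl. The 6 endothelial markers, of which 4 reached 1 CPM, summed to 167 CPM against 108 and 110.1 in untreated MyS3KO and to 56.5 to 147 in untreated Smad3fl. Between all MyS3KO and Smad3fl libraries, 0 of 7 marker lists had sums apart by range in either treatment. Their part in the result was not tested.

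**Figure D4:**
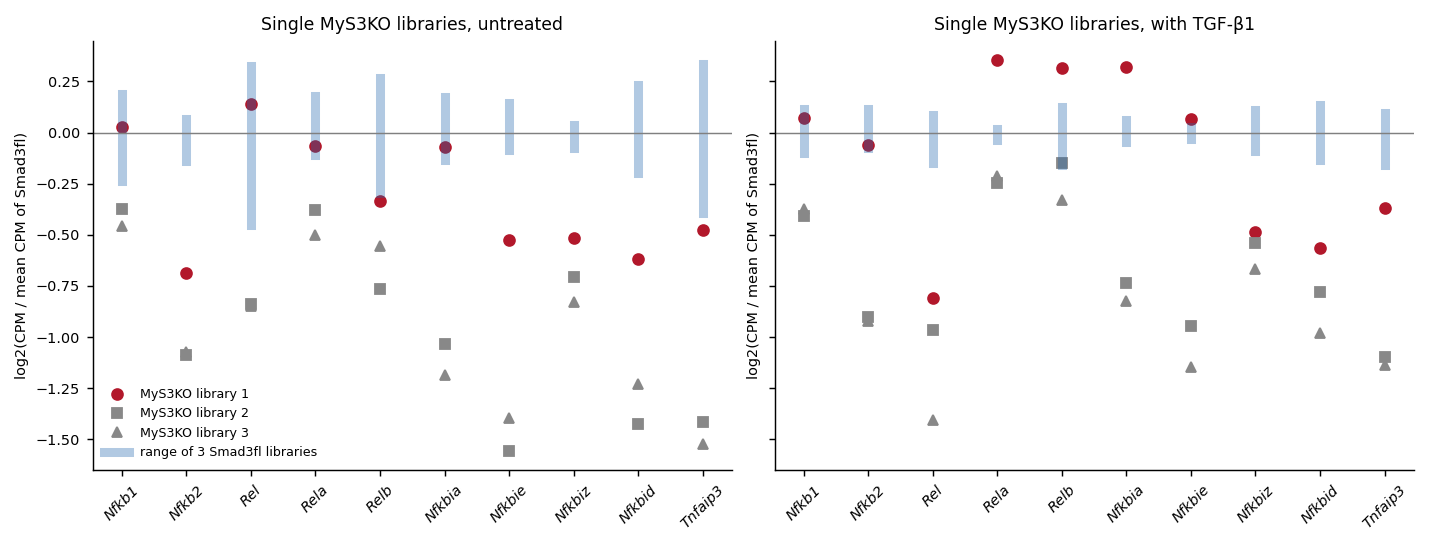
Level of each member in single MyS3KO libraries relative to the mean of Smad3fl under the same treatment (y axes, log2 ratio of CPM), untreated on the left and with TGF-β1 on the right. The bars span the 3 Smad3fl libraries. Library 1 is the highest of the 3 for all 10 members in both panels, and libraries 2 and 3 lie close together for most members.

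In the Smad2 line the same comparison gave no call. Untreated, all 10 members had higher estimates in libraries labelled MyS2KO, with a median log2 difference of 0.21 against 0.01 over all genes. By the edgeR test 0 of 10 were called and 1 had an unadjusted p under 0.05, DESeq2 called 0, and 0.0701% of all genes were called. With TGF-β1, 9 estimates were higher, the exception being Nfkbid, and the median was 0.45 against 0.01. The edgeR test then called 0, with 5 members at an unadjusted p under 0.05, DESeq2 called 1 and 0.421% of all genes were called. Ranges did not overlap for 3 members untreated and 7 with TGF-β1, against 15.2% and 19.4% of all genes.
Marker sums were apart by range as well. Untreated, Smad2fl and libraries labelled MyS2KO were at 27689.6 to 32576 CPM against 21017 to 24256 for the macrophage list, 1.43 to 3.06 CPM against 6.71 to 10.9 for the neutrophil list, of which 5 of 10 markers reached 1 CPM, 109 to 139.6 CPM against 149.8 to 180.3 for endothelium and 19.7 to 23.1 CPM against 25.9 to 27.2 for dendritic cells. With TGF-β1 they were at 23628 to 25096 CPM against 19216 to 20909, 1.06 to 3.24 CPM against 5.10 to 7.44 and 96.5 to 104 CPM against 118 to 135 for the first 3 lists. The macrophage list holds Lyz2, the myeloid lysozyme gene whose promoter drives the recombinase. Its log2 difference was -0.89 ± 0.37 (adjusted p = 0.502) untreated and -0.96 ± 0.37 (adjusted p = 0.367) with TGF-β1, neither called. How far Lyz2 alone moved that sum, and the part of these lists in the results, was not tested.
Tnfaip3 had the largest untreated estimate, with 117, 161 and 198 CPM in Smad2fl and 231, 219.9 and 294 in libraries labelled MyS2KO, apart by range, and a difference of 0.65 ± 0.25 (adjusted p = 0.442). Nfkbiz with TGF-β1 came nearest to the threshold, with 208, 243 and 269 and 341, 337 and 312 CPM, apart by range, and a difference of 0.46 ± 0.11 (adjusted p = 0.0767). It was called without treated Smad2fl library 3, at 0.55 (adjusted p = 0.0492), and by DESeq2, at 0.45 ± 0.11 (adjusted p = 0.00394). Nfkbie with TGF-β1 differed by 0.65 ± 0.28 (adjusted p = 0.45) and Nfkbia by 0.50 ± 0.27 (adjusted p = 0.613), with 439.7, 403 and 545 CPM in treated Smad2fl and 630.0, 605 and 728 in treated libraries labelled MyS2KO. The Nfkbia groups did not overlap either. Nfkbid, the exception, was at 33.5, 31.2 and 34.1 CPM in treated Smad2fl and 26.6, 25.7 and 28.2 in treated libraries labelled MyS2KO, apart by range, with a difference of -0.30 ± 0.18 (adjusted p = 0.663).

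Whether the response to TGF-β1 itself differed between floxed and Cre-carrying libraries was tested as an interaction, the response of the Cre-carrying libraries minus that of the floxed ones. By the edgeR test no member was called in either line, 0 had an unadjusted p under 0.05, and DESeq2 called 0, where 0.00701% of all genes were called in the Smad2 line and 0.021% in the Smad3 line. In the Smad3 line the estimates farthest from 0 were -0.60 ± 0.36 (adjusted p = 0.728) for Rel, 0.51 ± 0.29 (adjusted p = 0.728) for Relb and 0.51 ± 0.39 (adjusted p = 0.741) for Nfkbie. Nfkbiz, called in all 4 genotypes, differed by 0.11 ± 0.16 (adjusted p = 0.843) in the Smad3 line and by 0.25 ± 0.16 (adjusted p = 1) in the Smad2 line. The Smad2 line estimate farthest from 0 was that of Nfkbid, -0.47 ± 0.25 (adjusted p = 1). The standard errors, 0.16 to 0.39 on the log2 scale, are those of the fit without the block and bound what that fit could show. A member called in 1 genotype and not in another is thus not shown to respond differently.

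Untreated floxed macrophages of the 2 lines also differed. The floxed gene and anything else in which the lines differ cannot be told apart, so the comparison only describes their levels. It shares its libraries with the comparisons above. In Smad3fl against Smad2fl, 4 members were higher, Nfkbid by 1.02 ± 0.18 (adjusted p = 0.000218), Nfkbiz by 0.84 ± 0.11 (adjusted p = 1.34e-05), Tnfaip3 by 1.10 ± 0.25 (adjusted p = 0.00258) and Rel by 0.80 ± 0.26 (adjusted p = 0.0219), where 33.4% of all genes were called and 17.7% were higher. Nfkbiz, at 456, 458 and 481 CPM in Smad2fl and 791, 856 and 858 in Smad3fl, was the member farthest apart relative to its spread. Ranges did not overlap for 7 members, against 38.4% of all genes, and for 3 in the comparison of the Cre-carrying lines, against 24.1%. The Rel call was lost without untreated Smad2fl library 2, at 0.65 (adjusted p = 0.109), untreated Smad3fl library 1, at 0.76 (adjusted p = 0.0609), or untreated Smad3fl library 2, at 0.58 (adjusted p = 0.145). In MyS3KO against libraries labelled MyS2KO, Relb alone was called, at -0.72 ± 0.21 (adjusted p = 0.04), where 5.97% of all genes were called and 2.62% were lower. That call was lost without untreated library 1 or 3 of those labelled MyS2KO, at -0.75 (adjusted p = 0.0722) and -0.51 (adjusted p = 0.272), or untreated MyS3KO library 2 or 3, at -0.60 (adjusted p = 0.19) and -0.70 (adjusted p = 0.121), and in a fit of only the 6 libraries compared, at an adjusted p of 0.0834. Without untreated MyS3KO library 1, 4 members were called, adding Nfkbia at -0.99 (adjusted p = 0.0274), Nfkbie at -1.14 (adjusted p = 0.0181) and Tnfaip3 at -1.02 (adjusted p = 0.0134). For that fit too, the genes called over all are given only within the range at the end. Dendritic cell marker sums were 19.7 to 23.1 CPM against 33.6 to 41.3 in Smad2fl and Smad3fl, apart by range. Between libraries labelled MyS2KO and MyS3KO the neutrophil list, at 6.71 to 10.9 CPM against 13.8 to 23.0, and the T, B and NK cell list, at 3.92 to 8.38 CPM against 10.5 to 10.7, were apart. Their part was not tested. The Smad3 level itself differed between the lines, as given above. By mean, untreated Smad3fl was the highest of the 4 untreated groups for every member except Rela and Relb.

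Within groups, most members deviated in the same direction from library to library. Over the deviations of log2 CPM from the group means in 24 libraries, Pearson's r was 0.93 between Nfkbia and Nfkbie, 0.91 between Nfkbia and Tnfaip3 and 0.93 between Nfkb2 and Rela. Rel was less tied to the other subunits, and Nfkbiz was less tied to Relb, Nfkb2 and Rela. For Rel, r was 0.26 with Nfkb1, 0.02 with Nfkb2, 0.00 with Rela and -0.16 with Relb. It was 0.66 with Nfkbiz, 0.52 with Tnfaip3, 0.45 with Nfkbia, 0.41 with Nfkbid and 0.36 with Nfkbie. For Nfkbiz, r was 0.23 with Relb, 0.33 with Nfkb2 and 0.34 with Rela, but 0.65 with Nfkb1. These are descriptions without a test. The libraries share their depth, their group structure and MyS3KO library 1. The tested genes whose log2 CPM followed Nfkbia most closely over the 24 libraries were Nfkbie (r = 0.953), Ddit3 (0.936), Sdc4 (0.933), Stx11 (0.933) and Prr14 (0.932). For Tnfaip3 they were Zswim4 (r = 0.936), Traf1 (0.933), Soat2 (0.929), Sdc4 (0.927) and Ankrd33b (0.926). For Nfkb1 they were Rhbdd1 (r = 0.910), Gtpbp2 (0.910), Gadd45b (0.902), Oasl1 (0.885) and Aff1 (0.878). Sdc4 was named for both Nfkbia and Tnfaip3.

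Other genes of the pathway were read from 3 lists: 48 kinases, adaptors and other regulators, 44 textbook targets of which 40 were tested, and 31 receptors and ligands upstream of which 28 were tested. Tnf, Cd40, Tnfrsf1b and Tlr2 stand in both of the last 2 lists. With TGF-β1, regulators were called 5 higher and 4 lower in Smad2fl, 2 and 1 in those labelled MyS2KO, with 4 and 11 for Smad3fl and 6 and 5 for MyS3KO, of 48 tested. All-gene shares called in these contrasts, given above, are 11.1%, 3.41%, 12% and 10%. Traf3, an adaptor that restrains the non-canonical pathway, rose in all 4 genotypes, with log2 changes of 1.52 ± 0.14 (adjusted p = 5.4e-08) in Smad2fl, 1.03 ± 0.14 (adjusted p = 3.33e-05) in libraries with the MyS2KO label, 0.91 ± 0.14 (adjusted p = 5.79e-05) for Smad3fl and 1.17 ± 0.14 (adjusted p = 2.4e-06) for MyS3KO. Irak3, a kinase-family protein that dampens Toll-like receptor signalling, fell in Smad2fl, at -0.73 ± 0.12 (adjusted p = 0.000107), in Smad3fl, at -0.93 ± 0.12 (adjusted p = 5.79e-06), and in libraries labelled MyS2KO, at -0.46 ± 0.12 (adjusted p = 0.024). The last call was lost under 6 alternatives, among them leaving out untreated library 1 or 2 or treated library 1 or 2, at adjusted p of 0.0672, 0.164, 0.153 and 0.0577. In Smad2fl and Smad3fl, Ikbke, an IκB kinase-related enzyme, fell too, at -0.82 ± 0.15 (adjusted p = 0.000447) and -0.97 ± 0.15 (adjusted p = 6.43e-05). Traf6, the adaptor downstream of these receptors, rose in Smad2fl, at 1.49 ± 0.24 (adjusted p = 0.000118), in MyS3KO, at 1.33 ± 0.24 (adjusted p = 0.000433), and in libraries labelled MyS2KO, at 1.03 ± 0.24 (adjusted p = 0.0121). The last call was lost without untreated library 1 or 2 or treated library 1 or 2, at adjusted p of 0.0529, 0.0636, 0.0708 and 0.0625. Map3k14, the kinase that starts non-canonical signalling, rose in MyS3KO, at 0.67 ± 0.13 (adjusted p = 0.000941).

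Receptors were called 2 higher and 4 lower in Smad2fl, 1 and 0 in those labelled MyS2KO, with 2 and 7 for Smad3fl and 2 and 3 for MyS3KO, of 28 tested and against the same all-gene shares. Tlr2, the receptor for bacterial lipopeptides, rose in all 4 genotypes, with log2 changes of 1.50 ± 0.17 (adjusted p = 1.01e-06), 1.03 ± 0.17 (adjusted p = 0.000319), 1.14 ± 0.17 (adjusted p = 3.96e-05) and 1.50 ± 0.17 (adjusted p = 1.22e-06) in the same order. Cd14, the co-receptor for lipopolysaccharide, fell in Smad2fl, at -0.74 ± 0.17 (adjusted p = 0.00527). Targets were called 3 higher and 1 lower in Smad2fl, 1 and 0 in those labelled MyS2KO, with 2 and 8 for Smad3fl and 3 and 1 for MyS3KO, of 40 tested. All-gene shares were again 11.1%, 3.41%, 12% and 10% in that order. The share of targets called lay close to them in every genotype but Smad3fl. In Smad3fl the inflammatory target Tnfaip2 fell, at -1.31 ± 0.25 (adjusted p = 0.000767), and so did the chemokine gene Cxcl2, at -1.44 ± 0.35 (adjusted p = 0.00718). Plau, the urokinase gene, rose in Smad3fl, at 2.20 ± 0.24 (adjusted p = 1.03e-06), in MyS3KO, at 1.70 ± 0.24 (adjusted p = 2.22e-05), and in Smad2fl, at 0.86 ± 0.23 (adjusted p = 0.0145). The Smad2fl call was lost without untreated library 1 or 2 or treated library 1 or 3, at adjusted p of 0.0583, 0.0716, 0.0769 and 0.0707. Without both Smad3fl libraries numbered 3, the Smad3fl counts were 3 higher and 5 lower among regulators, 2 and 5 among targets and 1 and 1 among receptors. Of all genes in that fit, 6.66% were called. The targets' median log2 change was -0.22, -0.04, -0.56 and -0.31 in the 4 genotypes, against medians of all genes within 0.04 of 0.

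In untreated MyS3KO against Smad3fl, 14 of 40 targets were lower and 1 higher, and with TGF-β1 again 14 were lower and 1 higher. In each treatment 15 of 40 were called, against 17.7% of all genes untreated and 28.2% with TGF-β1. The log2 difference was -1.67 ± 0.21 (adjusted p = 2.28e-05) for the inflammasome sensor gene Nlrp3, -2.47 ± 0.37 (adjusted p = 0.000117) for Cxcl2, -3.50 ± 0.53 (adjusted p = 0.000141) for the cytokine gene Il1b and -1.60 ± 0.25 (adjusted p = 0.00018) for the stress-response gene Ier3. With TGF-β1, Ptgs2, which encodes the inducible cyclooxygenase, was lower, at -2.66 ± 0.48 (adjusted p = 0.000597), and so was the adhesion molecule gene Vcam1, at -3.01 ± 0.56 (adjusted p = 0.000722). Without both MyS3KO libraries numbered 1, 25 targets were lower untreated and 20 with TGF-β1, and 0 were higher in either by the edgeR test. Of all genes in that fit, 22% were called and 10.6% were lower untreated. With TGF-β1 these all-gene shares were 23.8% and 10.6%. Regulators were 11 lower and 3 higher untreated, among them Traf3 at -0.92 ± 0.14 (adjusted p = 0.000125), and 10 lower and 6 higher with TGF-β1, among them Malt1, which encodes a protease that relays signals to NF-κB, at -1.80 ± 0.38 (adjusted p = 0.00196). Of 48 regulators, 14 untreated and 16 with TGF-β1 were called, to be read against the same all-gene shares. Among 28 receptors, whose shares called were close to those of all genes, 3 were lower and 2 higher untreated, and 4 were lower and 5 higher with TGF-β1, with Tlr4, the receptor for lipopolysaccharide, at -1.08 ± 0.22 (adjusted p = 0.00133). By the rule for named genes, 60 calls from these lists in the TGF-β1 and MyS3KO comparisons could be named, and 23 of them were lost under at least 1 alternative, 15 of them when 1 library was left out. Those given values here were picked from them after their values and stability were seen, mostly among calls that held. All those given values for MyS3KO against Smad3fl were lower, so they do not show the higher calls counted above. The members' own median, -0.67 untreated and -0.57 with TGF-β1, stood beside list medians of -0.64 and -0.35 for the targets, -0.19 and -0.11 for the regulators and -0.11 and -0.04 for the receptors. In the Smad2 line the edgeR test called 0 genes of the 3 lists in either treatment. At an unadjusted p under 0.05 stood 4, 5 and 0 regulators, targets and receptors untreated and 5, 12 and 5 with TGF-β1, and DESeq2 called 2 targets in each treatment and 0 genes of the other lists.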

How the data were processed

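Polyadenylated RNA from 24 macrophage libraries was sequenced as paired reads of 150 bases, per the labels' protocols. The authors deposited raw counts and FPKM per gene in 1 table with gene positions. The submitters' processing notes name TopHat2 2.0.9, HTSeq 0.6.1, Cufflinks 2.1.1 and mm10. Which tool made which column, and whether counting used strand, is not given in the sources used here.

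Deposited counts were tested with edgeR 4.0.16 (quasi-likelihood, TMM scaling, filterByExpr over 8 groups) in 1 model of all 24 libraries, with Benjamini-Hochberg adjustment over 14261 genes. The median biological coefficient of variation was 21.2%, the prior degrees of freedom 6.07 and the residual ones 16. Deposited FPKM served only to order the members' levels per length. The members and lists were chosen with earlier results of these data known. Genes named beside the members are up to 4 called genes with the smallest adjusted p per list and comparison. Library numbers were taken to pair treated with untreated libraries where all 3 correlations of deviations from group means exceeded 0.1. This held in Smad3fl (0.33 to 0.45) and in libraries labelled MyS2KO (0.15 to 0.41), and in no other comparison. The highest correlation between unlike numbers was -0.09 in Smad3fl. In libraries labelled MyS2KO it was 0.20, above the 0.15 of number 1, so pairing is less clear there. Alternatives were median-of-ratios scaling, no filter on low counts, DESeq2 1.42.0, the block, a fit on only the groups compared, and leaving out libraries singly or as 2 sets.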

Additional observations from a re-analysis of the deposited data

How the results depend on the processing

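Of 25 calls on members, 12 held under every alternative run and 13 were lost under at least 1; of 95 results not called, 29 were called under at least 1; none of the 1540 values reversed a call. With 1 library left out, members called ranged from 2 to 4, 1 to 1, 1 to 4 and 2 to 4 for TGF-β1 in Smad2fl, those labelled MyS2KO, Smad3fl and MyS3KO, from 0 to 0 and 0 to 1 for MyS2KO against Smad2fl untreated and treated, from 4 to 8 and 3 to 7 for MyS3KO against Smad3fl, from 0 to 0 for both interactions, and from 3 to 4 and 0 to 4 between lines, floxed and Cre-carrying. In that order, genes called ranged from 1057 to 1569, 316 to 451, 1136 to 1993, 914 to 1557, 2 to 12, 0 to 57, 1367 to 3577, 2219 to 3318, 0 to 1, 0 to 6, 2744 to 5970 and 382 to 948, against 1584, 486, 1714, 1428, 10, 60, 2531, 4017, 1, 3, 4762 and 852 with all libraries.

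With the replicate block, TGF-β1 called 6, 2, 7 and 5 members and 3237, 1032, 3306 and 2749 genes in the 4 genotypes, the interactions 2 and 6 genes and MyS2KO against Smad2fl untreated 19. In Smad2fl and MyS3KO the numbers did not meet the rule for pairing, a set cutoff of 0.1. Own-number correlations were 0.05, 0.13 and 0.16 in Smad2fl, all above the highest between unlike numbers, 0.04. In MyS3KO they were 0.41, 0.04 and 0.29, with a highest of 0.29 between unlike numbers. The block within line called Nfkbia in untreated MyS3KO against Smad3fl (adjusted p = 0.0249) and Nfkbie in treated (adjusted p = 0.0334). The numbers do not pair libraries across these genotypes. Own-number correlations there were -0.14, -0.34 and 0.14 untreated and -0.22, -0.01 and -0.10 treated. Without the filter on low counts, 5 members were called for TGF-β1 in Smad2fl, 1 and 1 for MyS2KO against Smad2fl untreated and treated, with 161 and 313 genes, 13 and 161 genes in the interactions, and 7 and 5 members between lines. DESeq2 called 1 member for MyS2KO against Smad2fl treated, 101 and 214 genes untreated and treated, and 5 and 7 genes in the interactions. Median-of-ratios scaling left 1 gene in the Smad3 line interaction. A fit on only the groups compared, which has fewer libraries, called 4 members for TGF-β1 in Smad2fl, 1004 genes in Smad3fl, 1 member and 893 genes in MyS3KO, 0 and 271 genes for MyS2KO against Smad2fl, 1 member and 256 genes for untreated MyS3KO against Smad3fl, 0 and 0 genes in the interactions, 2209 genes between floxed lines and 0 members and 391 genes between Cre-carrying lines. In that fit the untreated MyS3KO calls of Nfkbid, Nfkbie, Nfkbiz and Tnfaip3 had adjusted p of 0.0676, 0.0809, 0.0826 and 0.112. Without both Smad3fl libraries numbered 3, TGF-β1 in Smad3fl called 1 member and 978 genes. Without both MyS3KO libraries numbered 1, 10 and 8 members were called against Smad3fl, 6 against those labelled MyS2KO and 0 genes in the interaction. Member counts given here without a share of all genes cannot be compared with how all genes moved in that setting. Where a setting's construction does not show it, the cause was not tested. The lowest count of a member was 296 reads. Whether depth or the spread between 3 libraries limits these comparisons was not tested.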
